A study of Arabidopsis thaliana with 6 samples.

Results

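The organ boundary genes described here are listed as targets of the homeodomain protein ATH1 and are *CUC1* (AT3G15170), *LSH4* (AT3G23290) and *LOB* (AT5G63090). They were taken by locus, as 3 of the 629 genes in the authors' deposited table of ATH1 targets, together with every peak that any library had in their listed windows and the listed neighbors that share a site. The data are peak lists from chromatin immunoprecipitation and sequencing (ChIP-seq) with beads carrying an antibody against GFP. Of the 6 libraries, 3 came from plants of the *ath1-3* mutant carrying *pATH1:ATH1-GFP*, a transgene that expresses an ATH1-GFP fusion driven by the promoter of *ATH1*, and 3 were wild-type controls without GFP. All used shoots of seedlings freed of leaves, from plants that according to the labels grew for 2 wk with 16 h of light per day. The transgenic plants were of 1 line with 1 copy of the transgene, chosen because it complemented *ath1-3*. The labels name Landsberg *erecta* as the wild type, whereas the series description and the study's methods name Columbia, and the methods also give longer growth in short days. The peak lists do not settle which holds. ATH1 was therefore present in both groups, as the fusion alone in the one and as the untagged protein in the other.

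Organ boundaries are the narrow zones of small, slowly dividing cells that separate a young leaf or flower from the meristem that formed it, and they are also where axillary meristems arise. *CUC1* encodes a transcription factor of the NAC family that acts with its close relative *CUC2* to set up boundaries and the shoot meristem of the embryo. *LSH4* encodes a nuclear protein of the ALOG family, and *LOB* encodes the founding member of the plant-specific LBD family of DNA-binding proteins. Both are transcribed in boundary cells, and *LSH4* is known to be activated by CUC1. ATH1 itself belongs to the BELL class of homeodomain proteins, which bind DNA together with partners of the KNOX class. Peak lists hold no expression values, so the labelled tissue could not be checked against markers.

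Each of the 3 genes had a single peak in its window in every ATH1-GFP library and none in any wild-type library, even when every deposited peak was counted. All 9 of these peaks had a false-discovery rate below 0.001, and at each gene the peaks of the ATH1-GFP replicates overlapped. A stretch covered by 1 peak of each ATH1-GFP library is called a shared region, and one without a wild-type peak below the same false-discovery rate a free region. All 3 genes had a free region, as did 436 of the 629 listed genes (69.3%), and 309 of the 721 shared regions (42.9%) were free. The table of targets was selected on these libraries, and its header names the wild-type lists as controls, so this contrast was not tested. The paper describes its peaks as passing a rate of 0.001 in each ATH1-GFP replicate and in no wild-type one. Not every listed gene had a free region as defined here, whereas all 629 had a shared region when wild-type peaks were not excluded. How the wild-type lists entered the table was not resolved.

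The region at *CUC1* lay on chromosome 3 of the TAIR10 genome from 5108994 to 5109918 and was 925 nt long. In ATH1-GFP replicates 1, 2 and 3, the fold enrichment of its peak was 6.16, 6.0 and 3.63 (mean 5.26 ± 1.42, SD, n = 3). Fold enrichment is the MACS value for tags piled up at the summit over the local background in the same library. *CUC1* thus had similar values in replicates 1 and 2 and a much lower one in replicate 3. The −log10 q was 99.1, 94.0 and 45.8, which leaves the peak far past the threshold of 3 in every library. Among the peaks below the false-discovery rate, *CUC1* took rank 16 of 1593 in replicate 1, rank 15 of 1226 in replicate 2 and rank 35 of 990 in replicate 3. Among the free regions alone its ranks were 6, 5 and 11.

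At *LSH4*, the region on chromosome 3 from 8325497 to 8325889 was 393 nt long. Its fold enrichment was 3.38, 3.34 and 2.42 in replicates 1, 2 and 3 (mean 3.05 ± 0.545, SD, n = 3), again with replicates 1 and 2 close together and replicate 3 below them. The −log10 q was 26.0, 24.7 and 15.2. *LSH4* ranked 62, 41 and 57 among the free regions, which is percentile 80.3, 87.1 and 81.9 in replicates 1, 2 and 3.

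At *LOB*, the region lay on chromosome 5 from 25306864 to 25307210 and was 347 nt long. The fold enrichment was 2.87, 3.17 and 2.59 in replicates 1, 2 and 3 (mean 2.88 ± 0.293, SD, n = 3), so that here replicate 2 and not replicate 1 was the highest. The −log10 q was 17.1, 21.6 and 18.7, and replicate 3 did not have the lowest value. Ranks among the free regions were 102, 49 and 39. The spread between libraries was 27.0% of the mean at *CUC1*, 17.9% at *LSH4* and 10.2% at *LOB*.

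**Figure D1:**
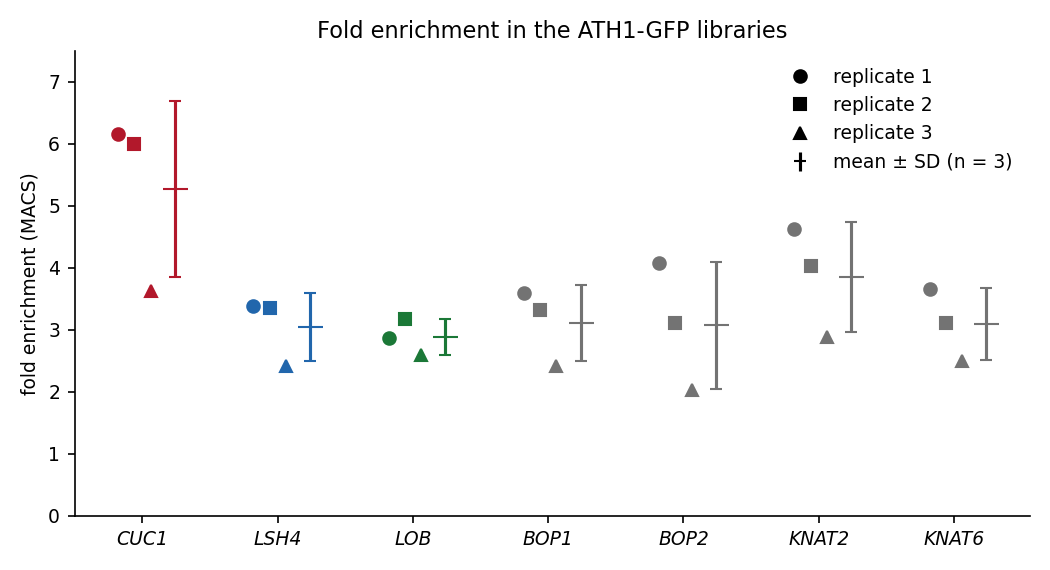
Fold enrichment (vertical axis, MACS value) at the 3 organ boundary genes (color) and at *BOP1*, *BOP2*, *KNAT2* and *KNAT6* (gray), with 1 symbol per ATH1-GFP replicate and the mean ± SD of 3 libraries beside them. *CUC1* stands highest in every library, and the means of *LSH4* and *LOB* lie below those of the 4 gray genes.

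The order of the genes was examined within each library, where the values have the same depth. *CUC1* exceeded *LSH4* by 2.78, 2.66 and 1.21 in replicates 1, 2 and 3, on average by 2.22 ± 0.875 (SD, n = 3; exact permutation of signs, two-sided, *P* = 0.25, adjusted *P* = 0.375). It exceeded *LOB* by 3.29, 2.83 and 1.04, a mean of 2.38 ± 1.19 (SD, n = 3; same exact test, *P* = 0.25, adjusted *P* = 0.375). Both differences had the same sign in 3 of 3 libraries, and 0.25 is the smallest value that 3 libraries allow in this test. As a ratio, *CUC1* was 1.82, 1.80 and 1.5 times *LSH4* and 2.14, 1.89 and 1.40 times *LOB*.

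*LSH4* and *LOB* did not keep one order. The difference was 0.502 and 0.172 in favor of *LSH4* in replicates 1 and 2 and −0.170 in replicate 3, with a mean of 0.168 ± 0.336 (SD, n = 3; exact sign-flip permutation test, *P* = 0.5, adjusted *P* = 0.5). Its mean is smaller than the spread between libraries, and it was 0.000775 without replicate 1 and 0.337 without replicate 3.

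The listed genes most alike in function are *BOP1* and *BOP2*, whose products are adaptors of a ubiquitin ligase and act at organ boundaries, and *KNAT2* and *KNAT6*, which encode KNOX homeodomain proteins of the meristem. The mean of these 4 genes was 3.99, 3.39 and 2.46 in replicates 1, 2 and 3. *CUC1* lay above this mean by 2.17, 2.61 and 1.17 (mean 1.98 ± 0.738, SD, n = 3; exact sign-flip permutation test, *P* = 0.25, adjusted *P* = 0.375). *LSH4* lay below it in every library, but by values from −0.610 to −0.0378 (mean −0.232 ± 0.328, SD, n = 3; same exact test, *P* = 0.25, adjusted *P* = 0.375), and without replicate 1 the mean was −0.0432. *LOB* was lower in replicates 1 and 2 and higher by 0.132 in replicate 3 (mean −0.400 ± 0.642, SD, n = 3; same exact test, *P* = 0.5, adjusted *P* = 0.5), and the mean was −0.0440 without replicate 1 and −0.666 without replicate 3. Adjusted values cover the 6 comparisons made. None of them could pass a threshold of 0.05 with 3 libraries.

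The tags behind these ratios can be read from the lists. At the summit of *CUC1* the pileup, which is the number of extended tags and is not scaled for depth, was 233, 226 and 191 tags in replicates 1, 2 and 3. At *LSH4* it was 120, 116 and 127 tags, and at *LOB* 102, 110 and 136. Replicate 3 was therefore highest in tags at *LSH4* and *LOB* and lowest at *CUC1*. Replicate 3 was also the deepest ATH1-GFP library, with 15584829 tags kept after duplicate removal against 10451892 and 10194418 in replicates 1 and 2.

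The background that MACS set against the pileup was recovered from pileup and fold enrichment. It was 34.8, 34.0 and 51.9 tags at both *LSH4* and *LOB*, equal in every library to the genome-wide background, which is the number of kept tags times the extension of 300 nt over the genome size of 90000000. No locally raised background therefore entered the values of these genes. At *CUC1* the background was 37.0, 36.8 and 51.9 tags, slightly above the genome-wide one in replicates 1 and 2. With the genome-wide background in its place, the fold enrichment at *CUC1* was 6.53, 6.49 and 3.63. Scaled to 1000000 kept tags, the pileup was 22.3, 22.2 and 12.3 at *CUC1*, 11.5, 11.4 and 8.15 at *LSH4*, and 9.76, 10.8 and 8.73 at *LOB*. *CUC1* was thus highest in each library on this scale too.

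**Figure D2:**
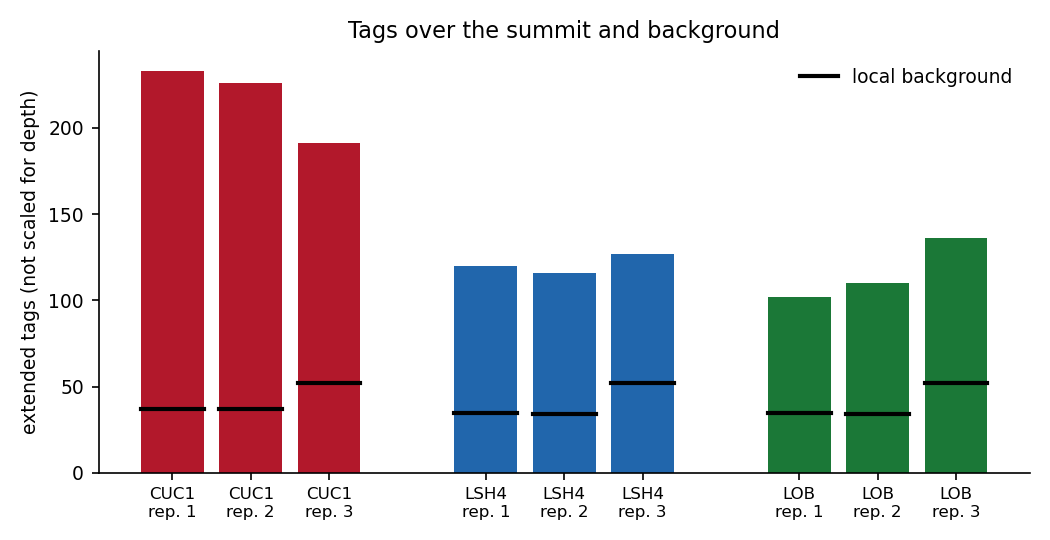
Extended tags over the summit (bars, not scaled for depth) and the background recovered for the same peak (black lines) at *CUC1*, *LSH4* and *LOB* in ATH1-GFP replicates 1 to 3. The background lines of replicate 3 stand at 51.9 tags for all 3 genes, above those of the other replicates, while the bar of *CUC1* falls to 191 tags.

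The lower value in replicate 3 was general, since 282 of the 309 free regions (91.3%) had their lowest fold enrichment there. Its size differed among the genes. The fold enrichment in replicate 3 was 0.596 of the mean of replicates 1 and 2 at *CUC1*, 0.719 at *LSH4* and 0.856 at *LOB*, against a median of 0.788 over the free regions (range 0.545 to 1.13). *CUC1* stood at percentile 1.94 of the free regions for this ratio, *LSH4* at 25.9 and *LOB* at 73.5. *BOP2* was lower than *CUC1*, with 0.562 at percentile 0.647, while *BOP1*, *KNAT2* and *KNAT6* had 0.701, 0.667 and 0.736. Weak regions could not show a low ratio, because they had to be called in replicate 3 to be counted. Over the genome-wide background, the weakest peaks below the false-discovery rate had 1.79, 1.83 and 1.66 in replicates 1, 2 and 3. How far this lower limit in replicate 3 added to the 282 regions was not tested. Among the 31 free regions with the highest values in replicate 1, the median ratio of replicate 3 to replicate 2 was 0.732 (range 0.604 to 0.939). On this other ratio, which leaves out replicate 1, the lowest of the 31 was that of *CUC1*. In the other 278 free regions the median was 0.824. Depth, which was highest in replicate 3, moved with this difference, and its part in it was not tested.

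**Figure D3:**
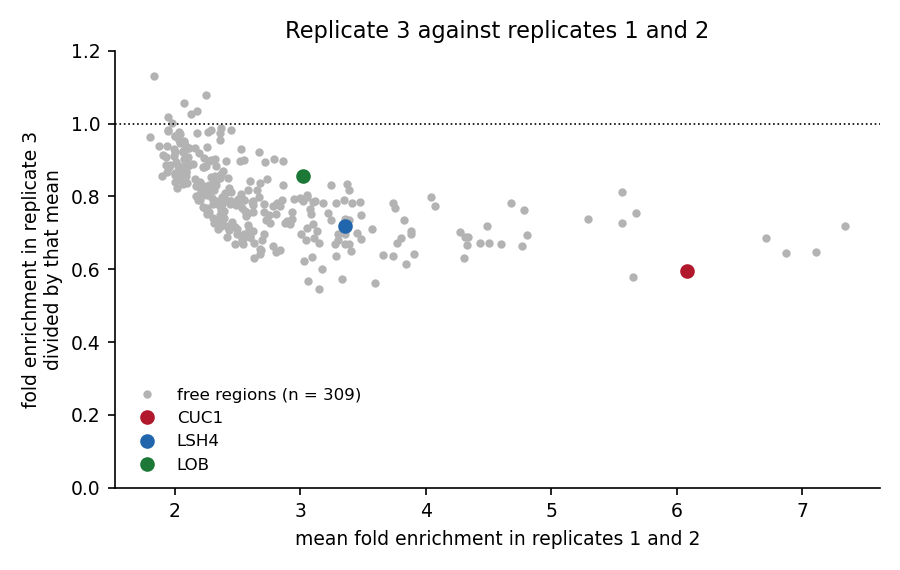
Fold enrichment in ATH1-GFP replicate 3 divided by the mean of replicates 1 and 2 (vertical axis), against that mean (horizontal axis), for the 309 free regions (gray) and the 3 organ boundary genes. *CUC1* lies at 0.596, near the bottom of the cloud, *LSH4* at 0.719 within it and *LOB* at 0.856 on its upper side, and the empty lower left corner follows from the need for a called peak in replicate 3.

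The genes also differed in the shape of the peaks. Those at *CUC1* were 948, 1017 and 935 nt long in replicates 1, 2 and 3 (mean 967 ± 44.1 nt, SD, n = 3), against medians of 445, 460 and 468 nt over all peaks of the same libraries. Ordered by the shortest of its replicate peaks, *CUC1* was 8th in length among the 309 free regions. Its summits lay toward the lower coordinates, 310, 333 and 264 nt from the start of the peak and 637, 683 and 670 nt from its end. At *LSH4* the peaks were 463, 511 and 393 nt long and at *LOB* 380, 410 and 380 nt. In the same order of length these genes were 154th and 171st, near the middle of the free regions. At *LOB* the summits sat almost in the middle of the peaks, 200, 192 and 194 nt from the start and 179, 217 and 185 nt from the end.

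The summits of the replicates fell close together. They were at 5109304, 5109258 and 5109248 for *CUC1*, at 8325648, 8325700 and 8325681 for *LSH4*, and at 25307031, 25307056 and 25307041 for *LOB*, in replicates 1, 2 and 3. The largest distance between summits was 56 nt at *CUC1*, 52 nt at *LSH4* and 25 nt at *LOB*, and the median over the free regions was 84 nt. Among these 3 genes, the order in summit spread was the same as in the spread of fold enrichment. At *BOP1*, *BOP2*, *KNAT2* and *KNAT6* the orders differed. Their summits spread over 15, 22, 4 and 39 nt, and their fold enrichments by 19.7%, 33.5%, 23.0% and 18.8% of the mean. For *CUC1*, the summits fell within a stretch far shorter than its peaks.

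**Figure D4:**
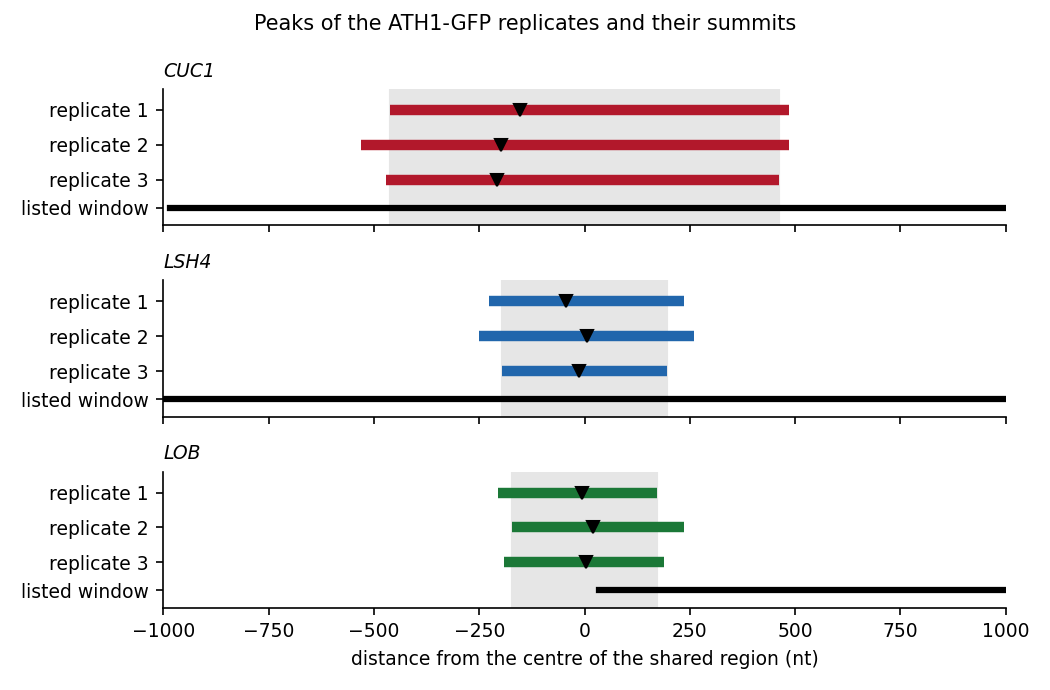
Extent of the peak in each ATH1-GFP replicate (colored bars), its summit (triangles), the shared region (gray band) and the listed window (black line), against the distance from the center of the shared region in nt. The bars of *CUC1* are 935 to 1017 nt long with summits left of center, and the window of *LOB* starts to the right of its summits.

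The listed windows were used as given, and strand, exons and transcript starts were not analysed here. The header gives lengths of 3000 nt before and 1500 nt after a coding sequence. Yet 288 of the 629 windows (45.8%) were shorter than the 4500 nt these sum to, among them that of *CUC1* with 3421 nt. The full lengths therefore do not hold for every window. The paper also required that no other gene lay between a peak and its target, and whether this shortened the windows was not tested. For *CUC1* the window spans 5108473 to 5111893 and holds the whole region. The same region lies for 890 of its 925 nt in the window of AT3G15160, an uncharacterized gene that precedes *CUC1* on the chromosome, and the windows of these genes overlap by 1411 nt. For *LSH4* the window spans 8324428 to 8329632. Its region lies entirely in the window of *XBAT35* (AT3G23280) as well, a gene for a ubiquitin ligase with ankyrin repeats, whose window ends exactly 1500 nt past the start of that of *LSH4*. The sites at *CUC1* and *LSH4* therefore cannot be assigned to a single gene from the windows alone, and AT3G15160 and *XBAT35* carry the same values. This is common in the table, where 303 of the 436 genes with a free region (69.5%) shared the strongest one with another listed gene.

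*LOB* was the only listed gene at its region, but the region reached past the edge of the window, which spans 25307072 to 25313973. Of its 347 nt, 139 lay inside the window. The summits in replicates 1, 2 and 3 were 41, 16 and 31 nt outside it. Among the 436 listed genes with a free region, 17 (3.90%) had all summits of the strongest region outside the window. When the center of the region was required to lie in the window, *LOB* lost its region and 2 of the 3 genes and 396 of the 629 listed genes kept one.

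Other peaks were far from these sites. The nearest other peak of an ATH1-GFP library was 11513 to 11957 nt away from the region at *CUC1*, 14253 to 50387 nt at *LSH4* and 15106 to 16682 nt at *LOB*. At *CUC1* the nearest wild-type peak was at that same place in all 3 libraries, at 11510 to 12258 nt. The nearest wild-type peak was 143734 nt or more from the region at *LSH4*. At *LOB* it was 16564 nt away in wild-type replicate 2 and 140867 nt or more in replicates 1 and 3.

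What the lack of a wild-type peak shows depends on depth. Over the genome-wide background, the weakest wild-type peak below the false-discovery rate had a fold enrichment of 2.56 in replicate 1, 1.72 in replicate 2 and 2.06 in replicate 3, at 3450182, 13518524 and 6689302 kept tags. The values of *CUC1* in the ATH1-GFP libraries were above all of these limits. Those of *LSH4* and *LOB* in replicate 3, 2.42 and 2.59, were below or just above the limit of wild-type replicate 1, so that library could have missed a site of this height. The limits of wild-type replicates 2 and 3 were below both values, but whether a site of this height would always be called there was not tested.

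The position of the genes among all free regions is given by the mean over libraries. *CUC1* had the rank 5 of 309, *LSH4* 51 and *LOB* 65, and the median of the free regions was 2.29 (range 1.78 to 6.65). By the distance between the fold enrichments in the 3 libraries, and leaving out neighbors at the same region as the gene itself, the listed genes most like *CUC1* were *APT3* (AT4G22570), with 5.61, 5.52 and 4.04, and the neighbors AT1G05700 and AT1G05710, with 5.60, 5.76 and 4.29 at their common region. For *LSH4* they were AT5G01850, with 3.36, 3.19 and 2.42, and *EIF2* (AT2G39990) and *HSPRO2* (AT2G40000), with 3.30, 3.43 and 2.57 at a region that AT2G40004 shares. For *LOB* they were the neighbors *SRC2* (AT1G09070) and *BIP3* (AT1G09080), with 2.95, 3.28 and 2.66, and AT1G72420, with 2.87, 3.12 and 2.38 at a region that AT1G72430 shares. The regions at AT5G01850, *EIF2*, *HSPRO2*, *SRC2* and *BIP3* overlapped wild-type peaks, unlike those of *LSH4* and *LOB*. The likeness covers 3 libraries and no other property of the genes.

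**Figure D5:**
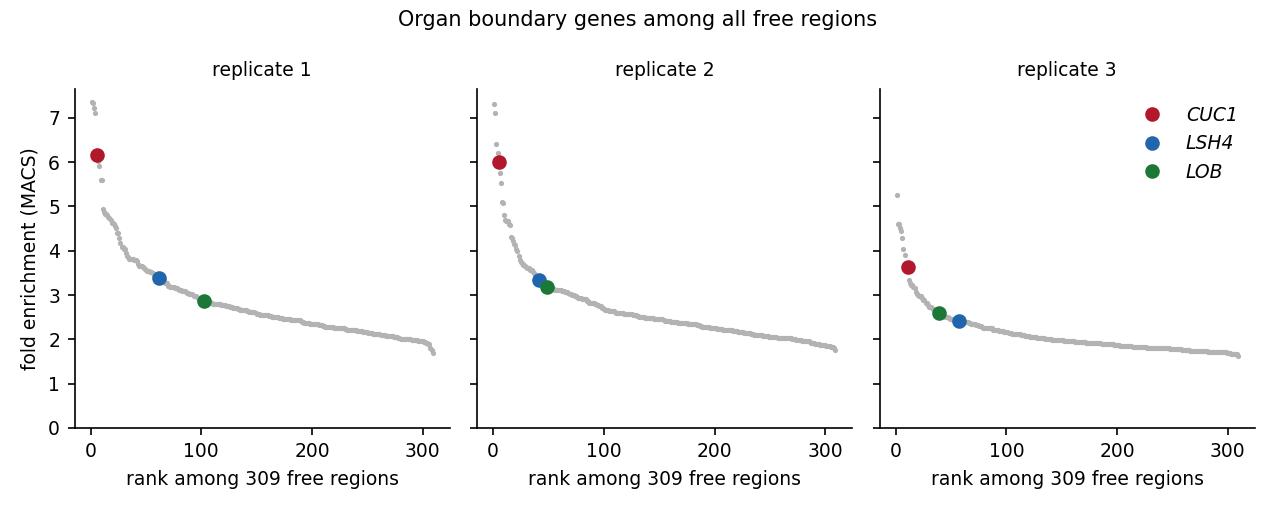
Fold enrichment (vertical axis) against rank (horizontal axis) for the 309 free regions in each ATH1-GFP replicate (gray), with *CUC1*, *LSH4* and *LOB* in color. *CUC1* has the ranks 6, 5 and 11, and *LSH4* and *LOB* exchange order in replicate 3.

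A list of 22 genes with known roles in organ boundaries or in the meristem next to them was compared with the table of targets. Of these, 7 were listed (31.8%), and each had a free region, whereas 597 of 27432 protein-coding loci of the RefSeq table (2.18%) were listed. The list was drawn up with earlier results of these data known and holds the genes described here, so the share is no independent result. Besides *CUC1*, *LSH4* and *LOB*, the listed ones were *BOP1*, with a fold enrichment of 3.10 ± 0.611 (SD, n = 3), *BOP2*, with 3.07 ± 1.03 (SD, n = 3), *KNAT6*, with 3.09 ± 0.581 (SD, n = 3), and *ATH1* itself, with 3.11 ± 0.412 (SD, n = 3). The value of *CUC1* was the highest of the 7, and the other 6 means lay between 2.88 and 3.11. *KNAT2*, of the group compared above, was not on the list of 22 and had 3.85 ± 0.885 (SD, n = 3). For *ATH1*, the transgenic plants held a further copy of its promoter and coding sequence, which the wild type lacked. The peaks at *ATH1* were 1656, 1531 and 1723 nt long in replicates 1, 2 and 3. What tags from the further copy added to them was not tested. The table had no row for *CUC2* and *CUC3*, which act redundantly with *CUC1*, nor for *LSH3*, the closest relative of *LSH4*. It also had none for the boundary genes *JLO*, *LOF1*, *LOF2*, *RAX1*, *RAX2*, *RAX3*, *LAS*, *HAN* and *PTL*, for the KNOX gene *STM*, or for *MIR164A* and *MIR164C*, which encode the microRNA that targets *CUC1* and *CUC2*. Peaks near genes without a row were not analysed here, because no window is listed for them.

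By family, *LSH4* was the only one of the 10 ALOG genes in the table (10%). Of 104 loci named as NAC genes in the RefSeq table, 4 were listed (3.85%, against 2.18% of protein-coding loci), all with a free region. After *CUC1*, these were *NAC076* (AT4G36160), a regulator of xylem vessels, with 2.26 ± 0.255 (SD, n = 3), *NAC062* (AT3G49530), a membrane-bound factor, with 2.22 ± 0.277 (SD, n = 3), and *TIP* (AT5G24590), with 2.09 ± 0.422 (SD, n = 3). All of them were below *CUC1* in every library. Of 41 loci named as LBD genes, 5 were listed (12.2%). *ASL9* (AT1G16530) had 2.87, 3.57 and 2.44 in replicates 1, 2 and 3 (mean 2.96 ± 0.574, SD, n = 3), close to *LOB*, with which it shared the value of replicate 1. *ASL1* (AT5G66870) had 2.41 ± 0.602 (SD, n = 3) and *LBD4* (AT1G31320) 2.20 ± 0.327 (SD, n = 3). *LBD41* (AT3G02550) had 2.21 ± 0.317 (SD, n = 3) at a region that overlapped a peak of 1 wild-type library. *LOB* was thus one of 4 listed LBD genes with a free region, which 69.3% of all listed genes had. Each family count includes a gene described here. Without it, 0 of 9 ALOG, 3 of 103 NAC and 4 of 40 LBD loci were listed. The listed NAC and LBD genes were found by their descriptions in the table of targets and the family sizes by RefSeq names. A named locus described otherwise would be missed among the listed ones.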

How the data were processed

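The authors mapped single-end reads to TAIR10 and ran MACS (version 2.0.10.20130915) on every library by itself. Its settings, per the file headers, were no control, an extension of tags to 300 nt, a maximum of 1 tag at a position, a genome size of 90000000 and a q of 0.05 at most. Because duplicates were removed, the tags that a narrow site can collect are bounded, an effect not tested here. The fold enrichment in the deposited lists is a ratio computed by the authors with MACS, as are the −log10 p and −log10 q values. The deposited pileup is a signal, in tags, that the authors did not scale for depth. The score in the deposited narrowPeak lists was not used. In the authors' deposited table of targets, fold enrichment and −log10 q are averages over ATH1-GFP libraries.

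Kept tags were 10194418 to 15584829 per ATH1-GFP library and 3450182 to 13518524 per wild-type library. Depth limits which peaks are called, and 3 libraries limit every mean.

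Only peaks below a false-discovery rate of 0.001 were used. Shared regions have at least 1 bp covered by 1 peak of each ATH1-GFP library, and a gene's value is that of the peaks at its strongest free region, or shared region if none is free. The background was recovered as (pileup + 1) / fold − 1; its lowest value in each library equaled the genome-wide background to within 0.01 tags. Differences between genes were tested by exact sign-flip permutation over the 3 ATH1-GFP libraries with Benjamini-Hochberg adjustment over 6 tests. Alternatives were other thresholds, overlaps, wild-type exclusions, file type, scales and omitted libraries. The genes named are those given by locus, their neighbors at the same region, fixed lists of boundary genes and gene families, the group compared and the 3 most similar listed genes. The genes and lists were chosen with earlier results of these data known. Region calling was tested on simulated data with at most 1 peak of a library at each site. In the real lists, a peak that overlapped more than 1 peak of another library formed a shared region with each. Some peaks therefore entered the counts, ranks and medians of regions more than once, which the simulated data could not show. Python 3.11.15, numpy 2.4.6, pandas 2.3.3 and matplotlib 3.10.9 were used. Symbols came from the RefSeq table (TAIR10.1), which held 620 of the 629 listed loci. Its coordinates were not used.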

Additional observations from a re-analysis of the deposited data

How the results depend on the processing

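The 3 genes had a free region under every alternative except the one that asked for the center of the region in the window, which left 2. In all, 107 values of differences and counts kept their direction or stayed within 1.5 times the main count. Among the 107 are the fall from 3 genes to 2 and the 0.000775 between *LSH4* and *LOB* without replicate 1. The 24 values of fold enrichment at the single genes moved by less than 1 SD. Only 1 difference changed direction, that of *LSH4* against the mean of *BOP1*, *BOP2*, *KNAT2* and *KNAT6*. It was 0.144 percentile points when the percentile among all peaks of a library replaced fold enrichment. The cause was not tested. The stricter threshold, all deposited peaks, both overlap rules and the narrowPeak lists gave fold enrichments and differences identical to the main ones. These settings kept the same peaks at the genes compared, so their repeats are not separate support. Other values counted here could not fail either. A mean over 2 of the 3 libraries cannot lie 1 SD from the mean over all 3. A difference with the same sign in all 3 libraries cannot reverse when a library is left out. No wild-type peak lay over the regions of the 3 genes, so no wild-type exclusion could remove them. The counts of 107 and 24 therefore do not measure stability. Leaving out a library gave differences between *CUC1* and *LSH4* from 1.93 to 2.72, between *CUC1* and *LOB* from 1.93 to 3.06, and between *LSH4* and *LOB* from 0.000775 to 0.337. The genome-wide background as divisor, chosen after seeing the data, gave 2.50, 2.67 and 0.168. The number of listed genes with a free region was 398 at a false-discovery rate below 0.0001 and 504 without wild-type replicate 2. No paired analysis was possible because the contrast of ATH1-GFP with wild-type libraries comes from no test. The tests between genes already took differences within each ATH1-GFP library.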
